A study of Sus scrofa with 12 samples.

Results

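A set of 10 genes of the actin cytoskeleton and of smooth muscle contraction were followed in pig granulosa cells kept at high or low oxygen: ACTA2, ACTB, TAGLN, MYL9, CNN1, TPM1, TPM2, MYH9, DES and TMSB10. They were chosen by name, and all 10 were found among the 18060 genes of the deposited expression table. The cells were primary follicular granulosa cells (Sus scrofa), the somatic cells that surround the oocyte, taken from antral follicles of mature Duroc × Yorkshire × Landrace sows and grown in medium with fetal bovine serum. Both groups shared this origin and culture, and differed in the last 12 h, spent in normoxia (21% O2) or in hypoxia (1% O2). The CO2 level was the same in both, and N2 made up the rest, so that it was higher in hypoxia. Each condition had 3 replicates, with 2 libraries made from each, namely the fragmented poly(A)+ RNA itself (the input) and the fragments bound by an antibody to N6-methyladenosine (m6A), a methyl mark on mRNA, 12 libraries in all. The labels call the replicates biological, put all 12 libraries in 1 batch and do not say whether they came from different sows, so p-values measure the spread between these libraries.

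Actin polymerises into filaments, and non-muscle or smooth muscle myosin II pulls on them to give a cell its tension. ACTA2, TAGLN, CNN1, MYL9, TPM1, TPM2 and DES are known as smooth muscle genes and are also high in myofibroblasts and other contractile cells in culture, whereas ACTB, MYH9 and TMSB10 are expressed in most cells. Many of them are known targets of serum response factor (SRF), whose MRTF cofactors bind free actin monomers. In the ovary, smooth muscle-like cells are a known part of the theca around the follicle, and cultured granulosa cells are known to form actin stress fibres.

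Levels are in FPKM (fragments relative to transcript length and to all mapped fragments), so that levels of different genes can be set side by side. Summed FPKM ranged from 294929 to 326804 over the 6 input libraries, and 8886 to 10212 genes reached 1 FPKM. Hypoxia library 3 had the fewest such genes, and its median-ratio factor of 0.753 was the lowest of the 6. The factors were 1.151, 1.166 and 1.084 in normoxia libraries 1, 2 and 3, and 0.935 and 0.984 in hypoxia libraries 1 and 2. Each hypoxia factor was thus below each normoxia factor. The granulosa markers FSHR (9.74 ± 0.692 FPKM in normoxia, mean ± SD, n = 3), FOXL2 (6.83 ± 0.904), INHA (10.4 ± 1.88) and CYP11A1 (315 ± 112) were present. Of the 10 granulosa markers 6 passed the filter on low values. AMH, CYP19A1 and STAR had means of 0.118, 0.233 and 0.0547 FPKM in normoxia. Genes of fibroblasts and theca were present too, such as the collagen gene COL1A1 (184 ± 6.99) and the proteoglycan gene DCN (231 ± 64.0). The leukocyte marker PTPRC (0.0244) and the endothelial marker VWF (0.0728) were near 0. The highest of their lists were CD68 for leukocytes (0.952 ± 0.257) and PECAM1 for endothelium (6.56 ± 0.327), the latter close to FOXL2 in level.

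Of the 10 genes, ACTA2, MYL9 and DES fell in hypoxia, MYH9 rose, and the other 6 did not pass the test. The test was limma on log2(FPKM + 1) over the 10196 genes that reached 1 FPKM in 3 or more libraries, at a Benjamini-Hochberg adjusted p under 0.05. Over all of them 26.5% passed, 21.1% lower and 5.4% higher. The median log2 fold change of the 10 genes was -0.19, beside -0.26 over all tested genes. For 5 of the 10 genes the normoxia and hypoxia values were separate, beside 44.1% of all tested genes. They were 4 on the lower side (ACTA2, ACTB, MYL9 and DES) and 1 on the higher side (MYH9), beside 34.9% and 9.25%. The 10 genes together made up 7.36%, 7.07% and 5.99% of the summed FPKM in normoxia and 6.13%, 5.66% and 4.44% in hypoxia. These shares overlapped between the conditions, and the largest fall in FPKM among the 10 was that of ACTA2 (means of 7642 and 3477). In these bulk libraries, fewer cells of a type and less RNA per cell cannot be told apart.

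The median shift of -0.26 depends on how libraries are scaled, and the median-ratio factors were lower in each hypoxia library than in each normoxia library. With each library divided by its median-ratio factor the median was 0.02, and the calls over all genes went from 551 higher and 2148 lower to 748 higher and 753 lower. After this scaling 2 of the 10 genes passed, ACTA2 and MYH9, beside 7.34% higher and 7.39% lower of all genes. The number of the 10 that passed was 2 without normoxia library 1, 2 or 3, 3 without hypoxia library 1 or 2, and 4 without hypoxia library 3. Without library 3 of both conditions it was 5, with ACTB (adjusted p = 0.0420) as the gene gained.

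**Figure D1:**
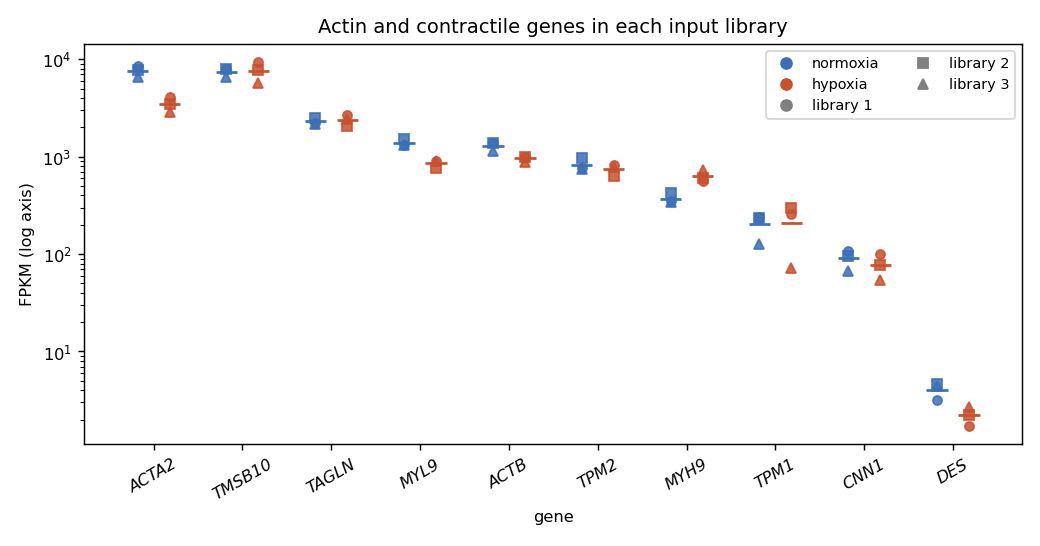
FPKM (log axis) of the 10 genes in the 3 normoxia and 3 hypoxia input libraries; each point is a library, its shape the library number, and each line the mean. ACTA2, MYL9, ACTB and DES lie lower in every hypoxia library and MYH9 higher. TPM1, ACTA2, ACTB, CNN1 and TMSB10 are lowest in library 3 of both conditions.

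ACTA2, the smooth muscle alpha actin and a thin-filament protein of contractile cells, had the largest fall of the 10. It lies on chromosome 14 (100867733 to 100886713, minus strand, Sscrofa11.1, as in the deposited tables). It had 8600.1, 7718 and 6607 FPKM in normoxia libraries 1, 2 and 3, and 4100.5, 3455 and 2876 FPKM in hypoxia. The lowest normoxia library stood above the highest hypoxia library. Its mean level went from 7642 ± 998 to 3477 ± 612 FPKM (n = 3 each), which is -1.14 on the log2 scale (SE 0.175, limma adjusted p = 0.00456). By mean FPKM it ranked 1 of all 18060 genes in normoxia and 6 in hypoxia. Its call held after median-ratio scaling (-0.79, adjusted p = 0.0231) and with each of the 6 libraries left out (highest adjusted p 0.0324).

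ACTB, the cytoplasmic beta actin that most cells use, had 1366, 1391 and 1143 FPKM in normoxia and 999, 999 and 887 in hypoxia. The conditions did not overlap, but the gene did not pass the test (-0.43 on the log2 scale, SE 0.136, limma adjusted p = 0.0549). With median-ratio factors applied the change was -0.07 (adjusted p = 0.809). ACTB lies on chromosome 3 (4082216 to 4090356, minus strand).

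The ratio of ACTA2 to ACTB within a library does not depend on how libraries are scaled. It was 6.30, 5.55 and 5.78 in normoxia and 4.11, 3.46 and 3.24 in hypoxia, without overlap. The mean log2 ratio was lower in hypoxia (difference -0.71, exact two-sided permutation p = 0.1, the smallest that 3 against 3 libraries allow). The smooth muscle actin was thus lower relative to the cytoplasmic one in each hypoxia library.

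The other actins give the context for this shift. ACTG1, the cytoplasmic gamma actin, had 5603, 5817 and 5775 FPKM in normoxia and 8441, 6786 and 10549.9 in hypoxia. Each hypoxia value was above each normoxia value, but the call was missed (0.56 on the log2 scale, SE 0.174, limma adjusted p = 0.0537). ACTG2, the smooth muscle gamma actin, fell from 246 ± 8.59 to 112 ± 13.5 FPKM (-1.14, adjusted p = 0.00188), with a passing adjusted p in each of the 6 fits without a library. The skeletal actin gene ACTA1 was listed at 0 in each normoxia library. Over these 5 genes, the summed FPKM was 15821, 15175 and 13762 in normoxia and 13663, 11338 and 14430 in hypoxia. ACTA2 made up 54.4%, 50.9% and 48.0% of that sum in normoxia and 30.01%, 30.48% and 19.9% in hypoxia. ACTG1 made up 35.4%, 38.3% and 42.0% in normoxia and 61.8%, 59.9% and 73.1% in hypoxia. The sums of the conditions overlapped, while the shares of both genes did not. These family sums were chosen after values had been seen. Actin genes are near-identical in their coding parts, and the sources do not say how fragments shared between them were counted, so the split is uncertain.

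TMSB10 codes for a beta thymosin, a small protein that binds actin monomers. It had 8013, 7906 and 6502 FPKM in normoxia and 9338, 7835 and 5721 in hypoxia, and the conditions overlapped widely. Its log2 fold change was 0.01 (SE 0.202, limma adjusted p = 0.983). By mean FPKM it ranked 2 of all genes in normoxia and 3 in hypoxia, where its mean of 7631 ± 1817 FPKM was above that of ACTA2. Library 3 was the lowest of both conditions. The related TMSB4X had 2809 ± 226 FPKM in normoxia and 2449 ± 641 in hypoxia, without a call. TMSB10 made up 72.6%, 73.7% and 71.6% of the summed FPKM of both thymosins in normoxia and 75.8%, 74.9% and 76.7% in hypoxia.

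Of the 2 myosin II genes among the 10, MYH9 rose and MYL9 fell, the latter without a call after median-ratio scaling. MYH9 codes for the heavy chain of non-muscle myosin IIA, the motor of stress fibres (chromosome 5, 11360660 to 11456472, plus strand). It had 348, 426 and 339 FPKM in normoxia and 565, 599 and 738 in hypoxia, each hypoxia value above each normoxia value. Its log2 fold change was 0.77 (SE 0.161, limma adjusted p = 0.0130), and 1.12 (adjusted p = 0.0174) after median-ratio scaling. The adjusted p was 0.0628 without normoxia library 1 and 0.0622 without normoxia library 3, and under the threshold with each other library left out.

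MYL9 codes for a regulatory light chain of smooth muscle and non-muscle myosin, whose phosphorylation switches contraction on (chromosome 17, 39788199 to 39795293, plus strand). It had 1323, 1533 and 1304 FPKM in normoxia and 913, 757 and 907 in hypoxia, with no overlap. The mean of 1387 ± 127 FPKM in normoxia became 859 ± 88.6 in hypoxia, a fall with an adjusted p of 0.0114 by limma (log2 fold change -0.69, SE 0.140). The call was lost after median-ratio scaling (-0.34, adjusted p = 0.329) and without normoxia library 2 (adjusted p = 0.0670). The gene TGIF2 (5.09 to 6.44 FPKM) overlaps MYL9 on the same strand over its whole span. How fragments in both were assigned is not given here.

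The ratio of MYH9 to MYL9 within a library was 0.263, 0.278 and 0.260 in normoxia and 0.619, 0.792 and 0.813 in hypoxia. The lowest hypoxia ratio exceeded the highest normoxia ratio (difference in mean log2 ratio 1.46, exact two-sided permutation p = 0.1, the smallest possible here). The sum of MYL9 with the cytoplasmic light chain genes MYL12A and MYL12B was 1503, 1707 and 1469 FPKM in normoxia and 1059, 899 and 1001 in hypoxia. MYL9 gave 88.9% ± 0.869 of it in normoxia and 87.0% ± 3.29 in hypoxia, so its share overlapped between conditions while the sum did not.

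**Figure D2:**
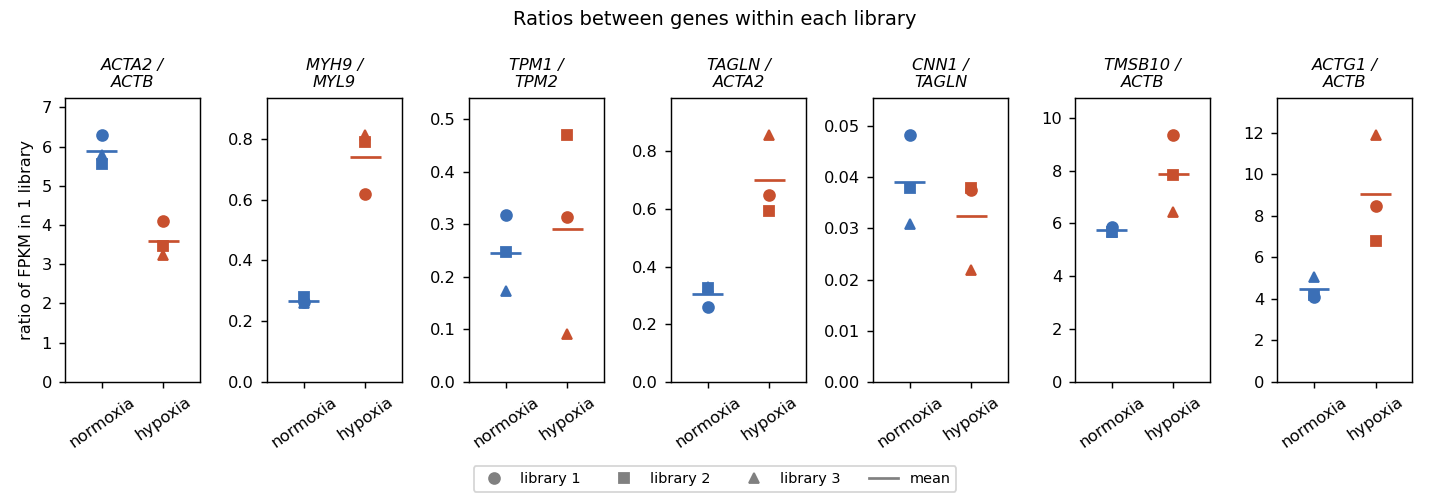
Ratios of FPKM between gene pairs within each input library, 3 normoxia and 3 hypoxia libraries, with lines at the mean and axes from 0. ACTA2 to ACTB is lower in each hypoxia library; MYH9 to MYL9, TAGLN to ACTA2, TMSB10 to ACTB and ACTG1 to ACTB are higher; TPM1 to TPM2 and CNN1 to TAGLN overlap.

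TAGLN, the actin-binding protein transgelin and an early marker of smooth muscle, had 2239, 2519 and 2176 FPKM in normoxia and 2659, 2047 and 2465 in hypoxia. The conditions overlapped (0.04 on the log2 scale, SE 0.146, limma adjusted p = 0.866). This difference was -0.04 without hypoxia library 1, and 0.40 (adjusted p = 0.246) after median-ratio scaling. The ratio of TAGLN to ACTA2 was 0.260, 0.326 and 0.329 in normoxia and 0.648, 0.592 and 0.857 in hypoxia, without overlap (exact two-sided permutation p = 0.1, the smallest possible).

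CNN1, the smooth muscle calponin that binds actin and tropomyosin, had 108, 95.4 and 67.3 FPKM in normoxia and 99.6, 77.6 and 53.9 in hypoxia. The conditions overlapped, and library 3 was lowest in both. Its log2 fold change was -0.24 (SE 0.270, limma adjusted p = 0.565), and 0.11 after median-ratio scaling. The calponins outside muscle were higher in level, with CNN2 at 357 ± 21.7 and 293 ± 32.5 FPKM and CNN3 at 164 ± 13.4 and 169 ± 25.6, neither with a call. CNN1 made up 14.7% ± 2.57 of the summed calponin FPKM in normoxia and 14.2% ± 3.39 in hypoxia.

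Tropomyosins lie along the actin filament and set which proteins can bind it. TPM2 had 757, 960 and 743 FPKM in normoxia and 827, 627 and 789 in hypoxia, with overlap (log2 fold change -0.13, SE 0.169, limma adjusted p = 0.617, and 0.22 after median-ratio scaling). TPM1 had 240, 237 and 128 FPKM in normoxia and 259, 295 and 71.7 in hypoxia, also with overlap. Library 3 stood at 0.538 times the mean of libraries 1 and 2 in normoxia and at 0.259 times in hypoxia, the lowest of the 10 genes in both conditions. The TPM1 log2 fold change was -0.14 with the largest SE of the 10 genes (0.547, adjusted p = 0.888). It was 0.51 (adjusted p = 0.113) without hypoxia library 3, 0.21 (adjusted p = 0.327) without library 3 of both conditions, and 0.22 after median-ratio scaling. TPM4, a cytoplasmic tropomyosin outside the 10, was also lowest in library 3, at 324 FPKM against 556 and 496 in normoxia and at 231 against 556 and 610 in hypoxia. TPM3 had 92.1 ± 14.8 and 63.1 ± 12.0 FPKM, without a call. A tropomyosin sum of 1655, 1791 and 1270 FPKM in normoxia stood beside 1715, 1597 and 1142 in hypoxia.

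DES codes for desmin, the intermediate filament protein of muscle (chromosome 15, 121427642 to 121435423, plus strand), and had the lowest level of the 10 genes. It had 3.17, 4.61 and 4.43 FPKM in normoxia and 1.73, 2.24 and 2.69 in hypoxia, without overlap. Its log2 fold change was -0.65 (SE 0.200, limma adjusted p = 0.0492), close to the threshold. The adjusted p was 0.316 after median-ratio scaling (-0.38), 0.0541 with a pseudocount of 0.1 and 0.0715 with no filter. Without normoxia library 1, 2 or 3 it was 0.0638, 0.191 and 0.162, and without hypoxia library 1 or 2 it was 0.185 and 0.0699. VIM, the vimentin gene of the same filament family, had 1289, 1188 and 1086 FPKM in normoxia and rose to 2337, 2019 and 1921 in hypoxia (log2 fold change 0.81, adjusted p = 0.00594).

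**Figure D3:**
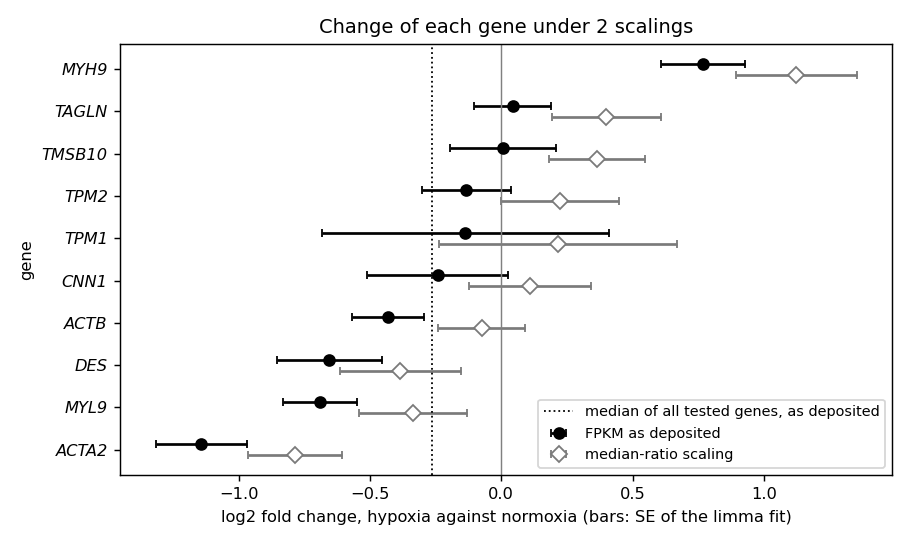
Log2 fold change of the 10 genes, hypoxia against normoxia, from FPKM as deposited (filled) and after median-ratio scaling (open); bars are the SE of the limma fit with 3 libraries per condition, and the dotted line is the median of all tested genes, -0.26. ACTA2 lies at -1.14 and MYH9 at 0.77, and scaling moves each gene upward, with CNN1, TPM1 and TPM2 changing sign.

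In direction, the authors' deposited table differed from the fit above for TPM1 alone of the 10 genes (log2 fold change 0.05 there). In that table q was under 0.05 for ACTA2 (log2 fold change -1.14, q = 0.00507) and MYH9 (0.77, q = 0.00108), 2 of the 10 genes beside 13.7% of all genes listed. The authors' deposited table marks ACTA2 as significant and lower, as it does 8.72% of all genes, and marks none of the 10 as significant and higher, beside 4.75%. MYH9 is thus unmarked despite its q. It gives MYL9 a log2 fold change of -0.69 with q = 0.306 and DES one of -0.88 with q = 0.293. For ACTB it gives -0.43 with q = 0.719.

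Of 70 tested genes on 7 further lists of the actin cytoskeleton, 5 rose and 9 fell, beside 5.4% and 21.1% of all genes. Their median log2 fold change was -0.18, beside -0.26 over all genes. After median-ratio scaling 5 were higher and 2 lower. Leaving out normoxia library 1, 2 or 3 turned the count of 14 into 9, 5 and 8, and leaving out hypoxia library 1, 2 or 3 into 9, 13 and 16. With both libraries numbered 3 left out it was 22.

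On the list of other actins and monomer regulators 3 of 9 tested genes fell and 0 rose, with a list median of -0.66. They were the actin gene ACTG2 and the regulators PFN1 and CFL1, while the regulators TMSB4X, CFL2, DSTN, CAP1 and GSN were not called. PFN1, the profilin that feeds monomers to growing filaments, fell in hypoxia (-0.69, limma adjusted p = 0.0165), with 1305 ± 192 FPKM in normoxia against 806 ± 64.8. CFL1, the cofilin that severs old filaments, fell from 667 ± 46.3 to 422 ± 33.3 FPKM (-0.66, adjusted p = 0.0103). After median-ratio scaling their adjusted p was 0.268 and 0.362. PFN1 also missed the threshold without normoxia library 1 (0.0775) or 2 (0.0873), and CFL1 without normoxia library 2 (0.0645).

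Among 14 tested smooth muscle and stress fibre genes outside the 10, LMOD1 fell and 0 rose, with a list median of -0.33. LMOD1, the leiomodin that nucleates actin filaments in smooth muscle, had 5.25, 9.09 and 2.74 FPKM in normoxia and 0.847, 0.877 and 0.321 in hypoxia. Its log2 fold change was -1.90 (SE 0.363, limma adjusted p = 0.00995), with a call in each of the 6 fits without a library. LMOD1 reached 1 FPKM in the normoxia libraries alone, so it passed the filter through the condition where it was high. Given the filter, its groups could not overlap, and their separation adds nothing to the call. With no filter its adjusted p was 0.0245. The smooth muscle myosin gene MYH11 had 76.8 ± 20.6 and 46.6 ± 9.96 FPKM and the myosin light chain kinase gene MYLK 71.7 ± 30.3 and 32.6 ± 16.5, neither past the threshold. The caldesmon gene CALD1 had 148 ± 40.9 and 155 ± 96.8 FPKM, and was lowest in library 3 of both conditions (100.4 and 53.5).

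Cross-linkers and focal adhesion genes rose in 3 of 15 cases and fell in 1, with a list median of 0.09. TES, a LIM protein of focal adhesions, rose by 1.24 on the log2 scale (limma adjusted p = 0.0208; 27.2 ± 5.74 FPKM in normoxia, 67.4 ± 22.2 in hypoxia), and the cross-linker gene ACTN1 by 0.49 (adjusted p = 0.0447). PARVA, which links integrins to actin, fell from 64.9 ± 2.51 to 37.5 ± 3.40 FPKM (-0.78, adjusted p = 0.00636). The adjusted p of PARVA was 0.113 after median-ratio scaling. TES missed the threshold without normoxia library 2 (0.0772) or 3 (0.0783) or hypoxia library 1 (0.0846). ACTN1 missed it without normoxia library 1 (0.136), 2 (0.110) or 3 (0.162), without hypoxia library 1 (0.140) or 2 (0.0795), with no filter (0.0628) and without a variance trend (0.0590).

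Upstream regulators changed in single genes. RHOB, a small GTPase, had 22.1 ± 2.81 FPKM in normoxia and 59.0 ± 3.38 in hypoxia. It rose (1.39 on the log2 scale, limma adjusted p = 0.00110), and it passed with each library left out and after scaling. LIMK1, the kinase that inactivates cofilin, fell from 12.6 ± 3.50 to 5.94 ± 1.79 FPKM (-0.97, adjusted p = 0.0312). LIMK1 missed the threshold after scaling (0.222), with no filter (0.0592), without normoxia library 1 (0.0502), 2 (0.0980) or 3 (0.106), and without hypoxia library 1 (0.113) or 2 (0.0571).

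SRF, the transcription factor itself, fell. It had 20.4, 22.8 and 24.8 FPKM in normoxia and 13.2, 13.9 and 11.7 in hypoxia, without overlap (-0.76 on the log2 scale, SE 0.148, limma adjusted p = 0.00993). Its adjusted p was 0.139 after median-ratio scaling (-0.43), 0.0581 without normoxia library 2 and 0.0566 without normoxia library 3. Its cofactors MRTFA (11.13 ± 2.17 and 14.02 ± 0.216 FPKM), MRTFB (5.09 ± 0.588 and 4.102 ± 0.512) and MYOCD (2.04 ± 0.576 and 1.67 ± 0.586) did not pass. Of 10 tested genes of the Arp2/3 and capping list, the capping gene CAPZB fell from 79.4 ± 4.14 to 48.6 ± 3.57 FPKM (-0.70, adjusted p = 0.00865, 0.240 after scaling, 0.0557 without normoxia library 2) and 0 rose. Of 5 intermediate filament genes beside DES, VIM rose, with a call in each of the 6 fits without a library, and the lamin gene LMNA fell (-0.57, adjusted p = 0.0447). LMNA had 0.531 after scaling, 0.0704 with no filter and 0.0517 without a variance trend. Its adjusted p was 0.118, 0.163 and 0.0544 without normoxia libraries 1, 2 and 3, and 0.123 and 0.0721 without hypoxia libraries 1 and 2.

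**Figure D4:**
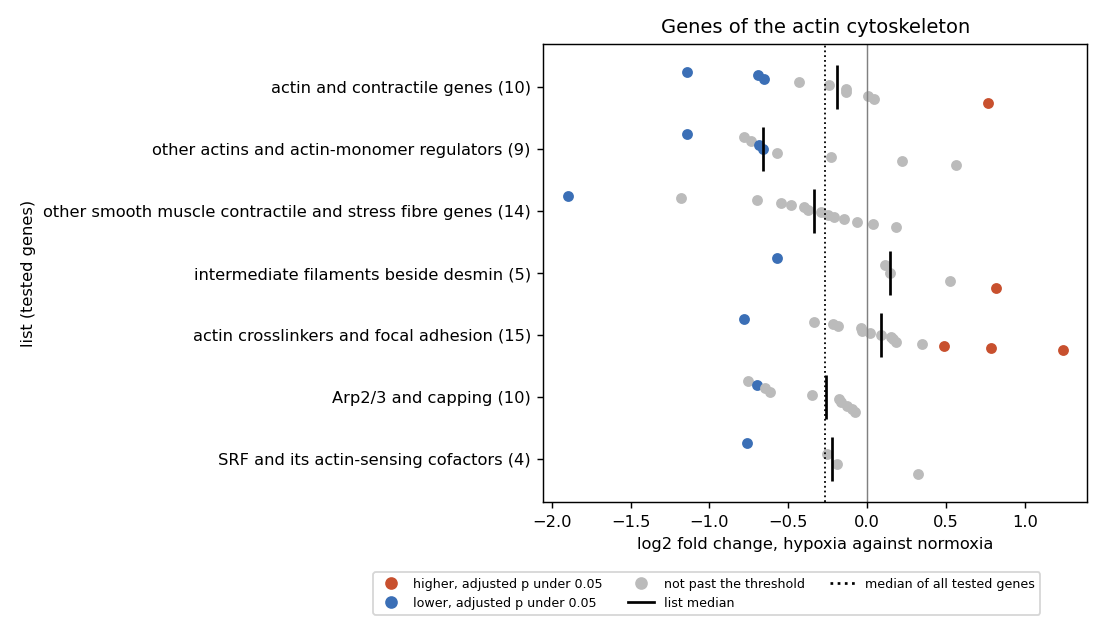
Log2 fold change, hypoxia against normoxia, of each tested gene of the 10 and of 6 of the 7 lists of the actin cytoskeleton; each point is a gene coloured by its limma call, black bars are list medians and the dotted line is the median of all tested genes. LMOD1 at -1.90 and TES at 1.24 are the outermost of the points drawn; the list that holds RHOB (1.39) and LIMK1 is not drawn.

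Some markers of granulosa and other cells changed as well. The calls per list stand beside 21.1% lower and 5.4% higher over all tested genes. The mature smooth muscle list (MYH11, LMOD1, SMTN, MYOCD, ACTG2 and SYNPO2) had 2 of 5 tested genes lower and 0 higher, and its summed level went from 366 to 464 FPKM in normoxia to 231 to 270 in hypoxia. SYNPO2 was near 0 in both conditions (0.0825 and 0.0477 FPKM), and LMOD1 and ACTG2 are the same values as above. LMOD1 passed the filter through its normoxia values alone. The fibroblast and theca list had 2 of 7 tested genes higher, COL1A1 and PDGFRA, and 0 lower, with sums of 663 to 898 and 729 to 965 FPKM. The pericyte list had 1 of 4 tested genes higher, NOTCH3, which had 0.965 ± 0.0960 and 8.497 ± 3.22 FPKM, with sums of 8.39 to 9.33 and 12.8 to 19.9. RGS5, on the same list, was lower without overlap (2.68 ± 0.318 and 1.78 ± 0.446 FPKM) and not called (limma adjusted p = 0.140). The defining channel genes KCNJ8 and ABCC9 were listed at 0 in each normoxia library and had means of 0.172 and 0.0275 FPKM in hypoxia, with each library above 0. Of the granulosa list 1 of 6 tested genes, FSHR, was lower, with sums of 304 to 504 and 126 to 275 FPKM. Most of that sum was CYP11A1, which was not called (315 ± 112 and 128 ± 89.9 FPKM, limma adjusted p = 0.0612). Of the 6 tested granulosa genes 4 (FSHR, FOXL2, NR5A2 and CYP11A1) were lower without overlap, beside 34.9% of all tested genes. FOXL2 had 6.83 ± 0.904 and 4.50 ± 0.338 FPKM and NR5A2 1.90 ± 0.745 and 0.878 ± 0.140, neither called (limma adjusted p = 0.0540 and 0.0737). INHA had 10.4 ± 1.88 and 10.5 ± 3.71 FPKM and INHBA 28.9 ± 1.92 and 28.1 ± 10.4, both with overlap. Endothelial sums were 6.31 to 6.93 and 2.90 to 3.16 FPKM (1 lower of 1 tested). Most of them was PECAM1, the tested gene (6.56 ± 0.327 and 2.81 ± 0.260 FPKM). Leukocyte sums were 1.06 to 2.22 and 2.33 to 3.89 (0 of 1), and striated muscle sums 0.0313 to 0.0563 and 0.290 to 0.690 (0 tested). The part of any of these cells in the changes above was not tested.

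The 5 genes closest to ACTA2 in pattern were APOO, PSMC1, UQCRQ, AKR1C8 and BEX4. Closeness was the root mean square difference of log2(FPKM + 1), centred on each gene's mean over the 6 input libraries, and it ranged from 0.0421 to 0.0678. AKR1C8 was the highest of them, at 1427 FPKM in normoxia and 658 in hypoxia. PSMC1, a proteasome ATPase, had 99.3 and 46.2 FPKM. The contractile genes outside the 10 were not among them.

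The deposited m6A peak lists held peaks on all 10 genes in normoxia (23 peaks) and on 9 of them in hypoxia (17 peaks). Over all tested genes, 85.8% had a listed peak in normoxia and 79.8% in hypoxia. TAGLN was the gene without a peak in hypoxia, and its peak in normoxia, at the 5′ end of the gene, had an adjusted p of 0.152. No peak of the 10 genes (0) was in the authors' deposited table of differential peaks, which lists peaks with an unadjusted p under 0.05 and holds a peak for 9.62% of tested genes. The authors' annotation assigned 8 of the normoxia peaks to 3′ UTRs, 8 to 5′ UTRs and 7 to exons, and 7, 5 and 5 of the hypoxia peaks. Over all listed peaks these shares were 45.8%, 17.1% and 32.8% in normoxia and 43.7%, 15.9% and 35.8% in hypoxia. The enrichments below are the authors' log2 enrichment of antibody library over input for each peak, which describe a peak within its own list. They have no per-library values and thus no error.

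The peaks of highest enrichment were on ACTB, TPM2 and TPM1. In the 3′ UTR of ACTB a peak of 3.99 in normoxia (chr3:4083623-4084665) and one of 5.04 in hypoxia (chr3:4082216-4084665) overlapped, above 95.2% and 99.1% of the peaks of their lists. ACTB had 3 more 3′ UTR peaks in each condition, from 1.46 to 2.78 in normoxia and from 1.46 to 3.74 in hypoxia, where 2 of them had an adjusted p of 0.0603 and 0.0759. TPM2 had a peak at its 5′ end of 4.17 in normoxia (chr1:236410003-236410905) and 3.36 in hypoxia (chr1:236410033-236410905). Its 3′ UTR peak had 0.84 and 0.83. At the 5′ end of TPM1 there was a peak of 3.54 in normoxia (chr1:109015973-109020035) and 3.63 in hypoxia (chr1:109016033-109020035). TPM1 had 4 further peaks in normoxia, from 0.98 to 1.57, and 0 in hypoxia. For its 5′ end peak of 3.54 and 3.63 and its exonic peak of 0.98, the peak lists name a transcript outside the TPM1 transcripts of the expression table. A span counts all bases between its ends, introns too.

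ACTA2 had 1 peak in each condition, over nearly the same exonic span (chr14:100881299-100884129 in normoxia, to 100884099 in hypoxia). Its enrichment was 1.06 in normoxia and 0.68 in hypoxia, above 15.8% and 2.62% of the peaks of the respective list. The transcript that the peak lists name for it is not among the ACTA2 transcripts of the expression table. MYH9, the gene that rose, had 2 exonic peaks in both conditions, with 1.491 and 1.151 in normoxia and 1.71 and 1.43 in hypoxia. TMSB10 had a 3′ UTR peak over the same span in both (1.57 and 1.75).

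DES had a 3′ UTR peak that reached the end of the gene in both conditions, with 2.80 in normoxia (chr15:121435037-121435423) and 3.10 in hypoxia, and a small exonic peak of 0.80 in normoxia. MYL9 had the lowest enrichments of the 10 genes, 0.43 at its 5′ end and 0.45 in its 3′ UTR in normoxia, and 0.60 at its 5′ end in hypoxia. CNN1 had peaks in the exonic stretch close to the end of the gene, 1.42 in normoxia and 0.91 and 1.30 in hypoxia, and one of 0.73 at the 5′ end in normoxia.

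The peaks of the 10 genes had a median enrichment of 1.46 in normoxia and 1.75 in hypoxia, beside 2.08 and 2.27 over the lists. Peaks of other genes with at least 100 FPKM had medians of 1.27 (566 peaks) and 1.51 (465 peaks). The part of the RNA level in this difference was not tested. Of the normoxia peaks of the 10 genes 15 overlapped a hypoxia peak of the same gene by at least 1 base, and of the hypoxia peaks 16 overlapped a normoxia peak. The share of all listed peaks with such an overlap was not counted, so these counts have no general rate beside them. Among the 70 tested listed genes outside the 10, DIAPH1, LIMK1, MRTFA, PARVA, PXN and VCL had a differential peak in the authors' deposited table. Over all tested genes 9.62% had one. The log2 differences were 0.43 for the formin gene DIAPH1 (adjusted p = 0.0309), -0.91 for LIMK1 (0.0380), 0.34 for PARVA (0.00776) and -0.31 for the paxillin gene PXN (0.0178), with MRTFA (-0.21, 0.248) and VCL (0.44, 0.0776) above an adjusted p of 0.05. Positive was taken to mean higher in hypoxia: 87 positive peaks overlapped hypoxia peaks and no normoxia peak, and 121 negative ones normoxia peaks and no hypoxia peak.

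**Figure D5:**
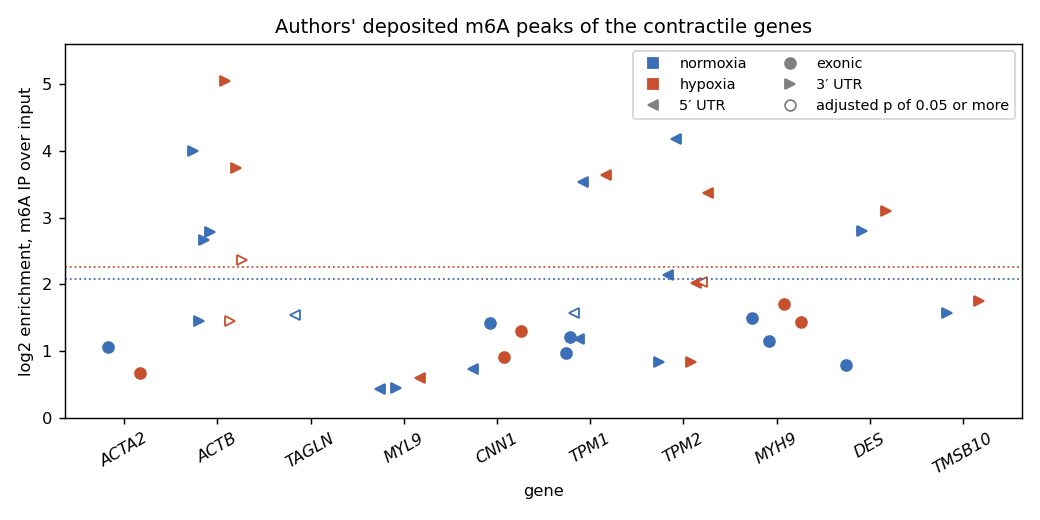
Authors' deposited log2 m6A enrichment (antibody library over input) of each peak on the 10 genes, in normoxia and hypoxia; the shape gives the annotated region, open symbols have an adjusted p of 0.05 or more, and dotted lines are the medians of the lists, 2.08 and 2.27. ACTB, TPM1, TPM2 and DES have peaks above these medians, and ACTA2, TAGLN, MYL9, CNN1, MYH9 and TMSB10 have none above them.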

How the data were processed

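Gene levels of the 6 input libraries are FPKM as the authors deposited them, per the file headers. The submitters' processing notes list HISAT2 2.0.4, StringTie 2.1.2, HOMER 4.10, edgeR 4.1, fastp 0.19.4 and FastQC, with the build Sscrofa11.1, and do not say here which of them produced a given table. The deposited peak lists and comparison tables hold the authors' log2 enrichments, log2 differences, p-values and adjusted p-values or q-values. Peak starts were raised by 1 to count from 1, as 3369 normoxia peaks began 1 base before the start of their gene and 0 at it.

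Limma 3.58.1 (R 4.3.3) compared hypoxia with normoxia on log2(FPKM + 1) of 10196 genes, those reaching 1 FPKM in 3 or more libraries, with a variance trend and robust estimation. The procedure was run on simulated data with independent noise in each library. These data held no shift shared by a whole library, so the run does not cover the deviation of hypoxia library 3. The log2(FPKM + 1) scale understates fold changes of low genes. Whole-read steps were not recovered from low FPKM (the most frequent ratio between libraries was shared by 12 of 1150 genes), so sequencing depth is unknown and no counting interval is given. The alternatives were a pseudocount of 0.1, no filter, median-ratio scaling (factors from tested genes above 0 in all libraries), no variance trend, the replicate number as a block, and each library left out over the same genes. Leaving out library 3 of both conditions was added after seeing the data.

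The 10 genes and all lists were chosen with earlier results of these data known. The genes named are these 10, up to 4 called genes per list and direction with the largest change, the markers, and the 5 closest to ACTA2. Other genes named (ACTG1, CNN2, CNN3, TPM3, TPM4, TMSB4X, CALD1, MYLK, MYL12A, MYL12B, CFL2, DSTN, CAP1, GSN, MRTFA and MRTFB), the gene ratios other than ACTA2 to ACTB, and the family sums were chosen after their values were seen. Some results of the lists are not reported here.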

Additional observations from a re-analysis of the deposited data

How the results depend on the processing

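ACTA2 kept its call under each alternative run, and MYH9 under each but the fits without normoxia library 1 or 3. Over all genes the count past the threshold was 2699, 1501 after median-ratio scaling, 4249 without library 3 of both conditions and 1132 to 4329 with 1 library left out. Of the 10 genes 4 passed, 1 higher and 3 lower. After median-ratio scaling 2 passed, 1 of them lower. With 1 library left out 2 to 4 passed, 0 to 1 higher and 1 to 3 lower. Of the 70 listed genes 14 passed, 5 higher and 9 lower. After median-ratio scaling 7 passed, 2 of them lower; with no filter 3 were higher; without library 3 of both conditions 22 passed, 17 of them lower; and with 1 library left out 5 to 16 passed, 2 to 6 higher and 3 to 10 lower. The cause of these shifts was not tested.

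Genes without a call changed sign in places. After median-ratio scaling the log2 fold change was 0.11 for CNN1, 0.22 for TPM1 and 0.22 for TPM2. With 1 library left out it ranged from -0.038 to 0.15 for TAGLN, from -0.50 to 0.51 for TPM1 and from -0.15 to 0.20 for TMSB10, with the signs reversed without hypoxia library 1 (TAGLN, TMSB10), hypoxia library 2 (TMSB10), hypoxia library 3 (TPM1), normoxia library 1 or 2 (TPM1) and normoxia library 3 (TMSB10). Without library 3 of both conditions it was -0.026 for TAGLN and 0.21 for TPM1.

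Libraries of the same replicate number deviated from their condition means with correlations of 0.586, 0.040 and 0.697 over 10196 genes. Normoxia library 1 correlated best with hypoxia library 2 (0.641). Normoxia library 3 had -0.571 and -0.628 with hypoxia libraries 1 and 2. Deviations from a shared mean depend on each other, so these values cannot decide whether the numbers are pairs. The submitters give no design for the fit, so the block was run as an alternative only. With the replicate number as a block, 3463 of all genes, 5 of the 10 (ACTB joined, adjusted p = 0.0372) and 23 of the 70 listed genes, 16 of them lower, passed. The mean log2 ratio of ACTA2 to ACTB stayed between -0.81 and -0.64 with 1 library left out. At an adjusted p under 0.05, 21 normoxia and 14 hypoxia peaks of the 10 genes were left, and 13 and 13 were shared at an overlap of 50% of both spans.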
